A study of Mus musculus with 24 samples.

Results

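Carboxylesterases are serine hydrolases that split ester and amide bonds in lipids and drugs, and the mouse liver makes many of them from tandem gene clusters. The 10 genes described here are *Ces1b*, *Ces1c*, *Ces1d*, *Ces1e*, *Ces1f*, *Ces1g*, *Ces2a*, *Ces2e*, *Ces3a*, and *Ces3b*. They were chosen by name from the Ces1, Ces2, and Ces3 genes, with earlier results of these data known. They make up 10 of 23972 genes counted. Other carboxylesterase genes counted in these livers, among them *Ces2c* and *Ces2g*, are described below. All 10 were located on mouse chromosome 8 of GRCm38. Liver RNA-Seq counts were compared in 24 libraries of female mice on a C57BL/6J background that were homozygous for an *Lmna* allele with loxP sites around exons 10 and 11. In LmnaADKO mice, Cre was driven by the *Adipoq* promoter, so that *Lmna* was lost in adipocytes and not in hepatocytes, and controls carried the floxed allele without Cre. Mice were 12 to 14 weeks old at the start, were housed at 22°C, ate a 60% high-fat diet for 4 weeks before they received vehicle (PBS with Pluronic F-68) or AAV8, and were euthanized 8 weeks later. There were 7 vehicle-treated controls, 3 FGF21-treated controls, 6 vehicle-treated LmnaADKO mice, and 8 FGF21-treated LmnaADKO mice, 1 library each. Because the labels give the second treatment only as a rescue, it was taken to be FGF21 from the study's methods, although *Fgf21* counts overlapped between treated and vehicle groups (1.90 to 10.8 CPM with vehicle and 3.14 to 7.40 CPM with FGF21 in controls).

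The libraries held 19863304 to 21510054 counts, of which the 10 genes took 0.365% to 0.707%. Values are in CPM, the counts of a gene scaled to a common library total, on TMM-scaled library sizes, and a gene was called when the adjusted p of edgeR's quasi-likelihood test, over all genes, was under 0.05 with a fold change above 1.5. *Lmna*, which hepatocytes keep, averaged 18.6 CPM (SD 2.5, n = 7) in controls given vehicle and 26.7 CPM (SD 2.6, n = 6) in LmnaADKO mice given vehicle, and whole-liver counts of the gene cannot check a deletion in adipocytes. All 5 hepatocyte markers analysed (*Alb*, *Ttr*, *Apoa1*, *Cps1*, and *Ass1*) were abundant, whereas *Lep* had 0 counts in 23 libraries and *Adipoq* in 15. In 3 libraries, log2 CPM depended more steeply on gene length than in the others (slopes of -0.33 for LmnaADKO FGF21 library 7, -0.29 for control FGF21 library 3, and -0.15 for control vehicle library 3). Animal numbers in the labels had 3 digits in 6 of 7 vehicle-treated controls and in 1 of 6 vehicle-treated LmnaADKO mice. This vehicle comparison therefore could not be made within a number series, and series and genotype cannot be fully told apart. All 3 FGF21-treated controls had 4-digit numbers, so that series and treatment in controls cannot be fully told apart either.

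Most mammalian carboxylesterases enter the endoplasmic reticulum and are kept there by a C-terminal signal of the form His-X-Glu-Leu, which KDEL receptors recognize, whereas a protein without it can be secreted. *Ces1c* encodes the esterase of mouse plasma, which lacks that signal. *Ces1d* encodes triacylglycerol hydrolase, which mobilizes stored lipid for very-low-density lipoprotein (VLDL) assembly. *Ces1e* encodes egasyn, which holds beta-glucuronidase in the endoplasmic reticulum, and *Ces1g* encodes another hepatic lipid hydrolase.

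The coding ends show which members carry this signal. The last 33 coding bases of each gene, from GENCODE M21 transcripts, are printed 5' to 3' with the last 4 codons before the stop in capitals, because this end separates *Ces1b* and *Ces1c* from the other Ces1 genes.
Ces1b: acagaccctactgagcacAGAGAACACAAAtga
Ces1c: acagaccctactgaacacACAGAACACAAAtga
Ces1d: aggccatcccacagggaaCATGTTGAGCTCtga
Ces1e: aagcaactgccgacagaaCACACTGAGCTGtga
Ces1f: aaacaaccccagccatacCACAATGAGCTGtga
Ces1g: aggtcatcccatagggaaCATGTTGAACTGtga
Ces2a: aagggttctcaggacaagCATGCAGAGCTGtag
Ces2e: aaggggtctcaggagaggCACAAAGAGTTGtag
Ces3a: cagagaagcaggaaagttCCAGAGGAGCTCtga
Ces3b: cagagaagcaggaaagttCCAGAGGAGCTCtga
Of the 10 genes, 6 ended in codons for His-X-Glu-Leu (*Ces1d*, *Ces1e*, *Ces1f*, *Ces1g*, *Ces2a*, and *Ces2e*). *Ces1b* and *Ces1c* shared another ending, and *Ces3a* and *Ces3b* had identical bases in this window. Over the whole coding sequence, *Ces3a* and *Ces3b* were 95.3% identical, *Ces1b* and *Ces1c* 88.8%, *Ces2a* and *Ces2e* 83.2%, and *Ces1d* and *Ces1g* 81.6%. The Ces1 genes lie on the minus strand, from *Ces1b* (chr8:93056728-93080017) to *Ces1g* (chr8:93302369-93337308). The other 4 genes lie on the plus strand, from *Ces2a* (chr8:104734003-104741634) to *Ces3b* (chr8:105083753-105093929).

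Promoter sequence from RefSeq (GRCm38.p6) was matched for 7 of the 10 genes, *Ces1b*, *Ces1c*, *Ces1e*, *Ces1g*, *Ces2a*, *Ces2e*, and *Ces3b*. The 250 bases before the start are printed for *Ces1b* (chr8:93079941-93080190, minus strand, the first of 2 listed starts) and *Ces1c* (chr8:93131284-93131533, minus strand), because both genes fell in vehicle-treated LmnaADKO mice. Capitals mark their longest shared run, of 58 bases.
Ces1b: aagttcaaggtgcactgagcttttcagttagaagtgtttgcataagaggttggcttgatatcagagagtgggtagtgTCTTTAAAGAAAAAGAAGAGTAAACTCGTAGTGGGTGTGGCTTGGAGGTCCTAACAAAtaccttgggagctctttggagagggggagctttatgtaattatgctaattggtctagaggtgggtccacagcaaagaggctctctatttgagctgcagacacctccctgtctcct
Ces1c: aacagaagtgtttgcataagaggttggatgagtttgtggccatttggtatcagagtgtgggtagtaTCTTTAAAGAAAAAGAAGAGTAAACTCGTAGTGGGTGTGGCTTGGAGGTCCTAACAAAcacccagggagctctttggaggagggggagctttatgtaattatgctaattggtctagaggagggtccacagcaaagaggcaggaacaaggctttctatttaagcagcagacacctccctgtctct
Over the 300-base windows, from 250 bases before to 50 bases after the start, these promoters were 78.0% identical. *Ces2a* and *Ces2e*, which moved in opposite directions between vehicle-treated genotypes, were 54.9% identical, with a longest shared run of 17 bases. Pairs that both fell could be less alike, at 47.6% for *Ces1c* and *Ces2a* and 43.2% for *Ces1b* and *Ces3b*. A relation between promoter likeness and these changes was not tested. The letters CCAAT, read on both strands, stood in 5 of 7 promoters (*Ces1b*, *Ces1c*, *Ces1g*, *Ces2a*, and *Ces3b*) and in 37.4% of all 32851 RefSeq promoters of this length. The letters TATAAA stood in 2 of 7 (*Ces1g* and *Ces3b*) and in 13.6% of all, and AGGTCA in 1 (*Ces2a*) and in 16.3% of all. The letters TTCNNNGAA stood in no member's window and in 8.30% of all promoters. No matches of different motifs overlapped.

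The hepatic carboxylesterase pool was dominated by *Ces1c* in every group. Levels between genes were compared as CPM per kilobase of merged exons. In vehicle-treated controls, the order was *Ces1c* (1694 ± 245 CPM per kilobase, SD, n = 7), *Ces3a* (317 ± 118), *Ces1d* (248 ± 82.1), *Ces1g* (92.4 ± 26.9), *Ces1f* (91.9 ± 18.4), *Ces1e* (51.8 ± 12.6), *Ces2e* (51.1 ± 10.97), *Ces2a* (49.9 ± 12.99), *Ces1b* (43.0 ± 6.83), and *Ces3b* (24.2 ± 7.46). *Ces1c* stood above *Ces3a*, and *Ces1d* above *Ces1g*, without overlap between libraries, and all other neighbours in this order overlapped. In vehicle-treated LmnaADKO mice, *Ces2e* moved from rank 7 to rank 4 (118 ± 13.5 CPM per kilobase, SD, n = 6), and its range overlapped that of *Ces1f* (114 ± 14.6), the next gene.

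*Ces1c* contributed 63.7% ± 3.58 of the summed level per kilobase in vehicle-treated controls and 47.1% ± 3.83 in vehicle-treated LmnaADKO mice. With FGF21, the share was 65.1% ± 2.86 in controls and 54.0% ± 5.45 in LmnaADKO mice (SD, n = 3 and 8). The summed level of the 10 genes was 6392 ± 890 CPM (5176 to 7328) in vehicle-treated controls and 4651 ± 1034 CPM (3306 to 6343) in vehicle-treated LmnaADKO mice. Without *Ces1c*, the sums were 2458 ± 445 and 2544 ± 420 CPM. In bulk liver, fewer hepatocytes and less RNA per hepatocyte cannot be told apart.

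**Figure D1:**
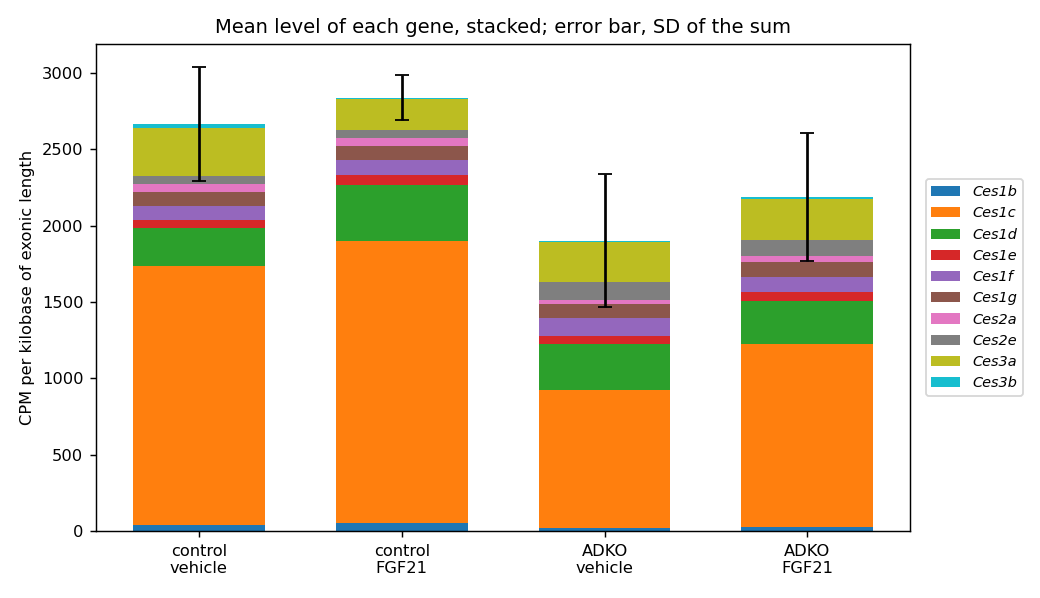
Mean level of each gene in CPM per kilobase of exonic length (linear axis), stacked for the 4 groups (n = 7, 3, 6, and 8 from left to right), with the SD of the summed level as the error bar. The *Ces1c* segment, 1694 CPM per kilobase in vehicle-treated controls, is the tallest in every group.

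To examine the effect of adipocyte lamin A/C loss, vehicle-treated LmnaADKO mice were compared with vehicle-treated controls. *Ces2e* rose, *Ces1b*, *Ces1c*, *Ces2a*, and *Ces3b* fell, and the other 5 members did not pass the test. Thus 5 of 10 members were called, against 8.48% of all genes tested and 13.5% of the 14680 genes that pass edgeR's filter on low counts. By direction, 1 member was called higher (5.12% of all genes) and 4 were called lower (3.36% of all genes). Library ranges did not overlap between genotypes for 4 members, *Ces1b*, *Ces1c*, *Ces2e*, and *Ces3b*, against 7.95% of all genes. The median log2 fold change was -0.15 over the 10 members and 0.0027 over all genes.

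*Ces2e*, a Ces2 gene of the group that includes drug and acylglycerol hydrolases, was at 96.2 to 192 CPM in vehicle-treated controls (median 135 CPM, n = 7). In vehicle-treated LmnaADKO mice it was at 277 to 364 CPM (median 315 CPM, n = 6). Every LmnaADKO library was above every control library, and the log2 fold change was 1.21 ± 0.12 (SE, adjusted p = 1.06e-07, edgeR). *Ces2a*, its neighbour in sequence, went the other way, with 69.3 to 162 CPM in controls (median 122 CPM) and 43.5 to 110 CPM in LmnaADKO mice (median 57.5 CPM). The ranges overlapped, 6 of 6 LmnaADKO libraries were below the control median, and the log2 fold change was -0.87 ± 0.24 (SE, adjusted p = 0.0135, edgeR). With the number series as a covariate, the *Ces2a* call was lost (-0.85, adjusted p = 0.0672, edgeR). The ratio of *Ces2e* to *Ces2a* per kilobase was 0.779 to 1.38 in vehicle-treated control libraries and 2.81 to 6.67 in vehicle-treated LmnaADKO libraries.

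*Ces1c*, the plasma esterase gene, was at 3332 to 4783 CPM in vehicle-treated controls (median 3746 CPM). It was at 1246 to 3095 CPM in vehicle-treated LmnaADKO mice (median 2006 CPM), below every control library. The log2 fold change was -0.90 ± 0.19 (SE, adjusted p = 0.00117, edgeR). *Ces1b*, which has the like coding end and promoter, was at 62.5 to 99.3 CPM in controls (median 88.7 CPM) and 27.8 to 62.2 CPM in LmnaADKO mice (median 36.3 CPM). All 6 LmnaADKO libraries lay below all 7 control libraries, the nearest pair at 62.2 and 62.5 CPM. The log2 fold change of *Ces1b* was -1.09 ± 0.22 (SE, adjusted p = 0.000979, edgeR). The level of *Ces1c* relative to *Ces1b* per kilobase overlapped between genotypes, at 32.6 to 46.1 in vehicle-treated controls and 35.6 to 60.7 in vehicle-treated LmnaADKO mice. Of the stretches of 100 bases in their transcripts, only 1.29% of *Ces1b* and 1.03% of *Ces1c* were shared between them.

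*Ces3b* had the largest fold change among the members. It was at 40.2 to 91.0 CPM in vehicle-treated controls (median 54.7 CPM) and 9.14 to 32.96 CPM in vehicle-treated LmnaADKO mice (median 13.3 CPM), without overlap. The log2 fold change was -1.97 ± 0.45 (SE, adjusted p = 0.00441, edgeR). *Ces3a*, its near-identical neighbour, was at 498 to 1421 CPM in controls (median 707 CPM) and 468 to 964 CPM in LmnaADKO mice (median 654 CPM), and its log2 fold change was -0.28 ± 0.21 (adjusted p = 0.427, edgeR). About 7.04% of the 100-base stretches of *Ces3b* also occur in *Ces3a*, which was more abundant, so that reads in these stretches cannot be assigned with certainty. For *Ces2a*, 8.13% of such stretches occur in *Gm7208*, whose mean was at most 0.0120 CPM in any group.

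The Ces1 genes with a His-X-Glu-Leu ending did not pass the test between vehicle-treated genotypes. *Ces1d*, the triacylglycerol hydrolase gene, was at 331 to 839 CPM in controls (median 595 CPM) and 564 to 1087 CPM in LmnaADKO mice (median 619 CPM). Its log2 fold change was 0.25, and 2 SE on either side gave -0.18 to 0.69. *Ces1f* showed a log2 difference of 0.31 ± 0.14 (adjusted p = 0.133, edgeR), with 6 of 6 LmnaADKO libraries above the control median. *Ces1e* and *Ces1g* had log2 fold changes of 0.17 (2 SE range -0.19 to 0.52) and -0.02 (2 SE range -0.41 to 0.38). *Ces1g* was at 115 to 288 CPM in controls and 134 to 341 CPM in LmnaADKO mice, so that the genotypes overlapped over most of their ranges.

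**Figure D2:**
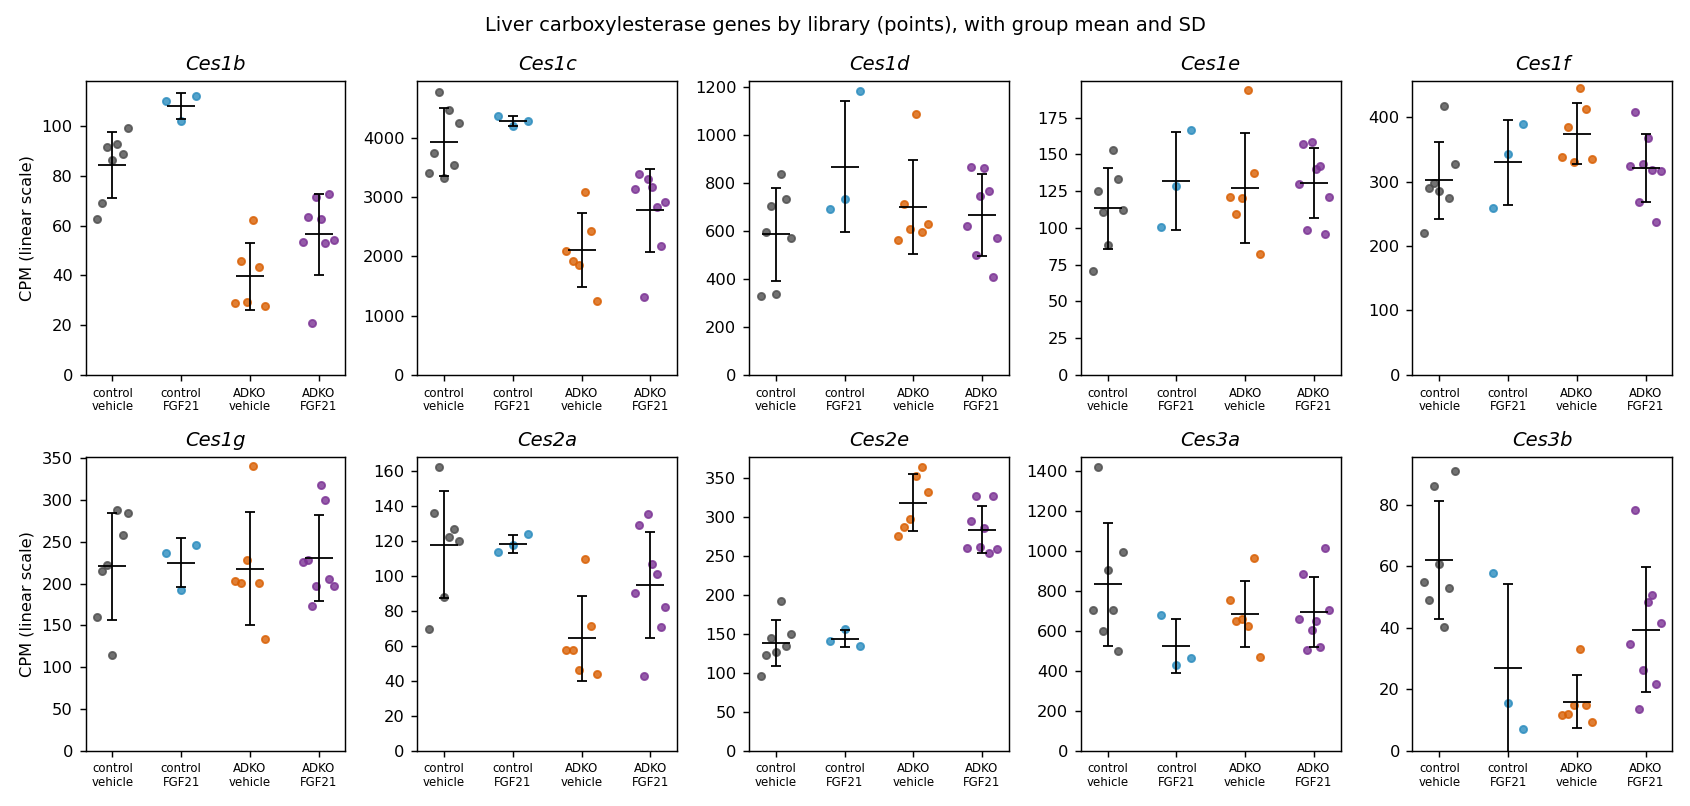
CPM of each gene (linear axis from 0) in each of 24 libraries, grouped by genotype and treatment, where ADKO is LmnaADKO, horizontal marks are group means, and bars are SD (the lower bar of *Ces3b* in FGF21-treated controls ends at the axis). *Ces2e* in LmnaADKO mice lies above both control groups, whereas *Ces1b* and *Ces1c* lie below the controls given the same treatment.

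Among FGF21-treated mice, 2 of 10 members were called between genotypes, against 2.88% of all genes and 5.72% of the 14680 genes that pass the low-count filter. *Ces2e* was called higher (1.61% of all genes) and *Ces1b* lower (1.26% of all genes). Ranges did not overlap for 3 members, *Ces1b*, *Ces1c*, and *Ces2e*, against 5.35% of all genes. *Ces2e* was at 135, 141, and 156 CPM in the 3 controls and 254 to 328 CPM in the 8 LmnaADKO mice (median 274 CPM), with a log2 fold change of 0.98 ± 0.16 (SE, adjusted p = 0.000369, edgeR). *Ces1b* was at 102.03, 110.03, and 112 CPM in controls and 21.03 to 72.6 CPM in LmnaADKO mice (median 58.4 CPM). Its log2 fold change was -0.94 ± 0.25 (SE, adjusted p = 0.0285, edgeR), and the call was lost without any 1 of the 3 controls (adjusted p = 0.0757, 0.0793, and 0.135 without control FGF21 library 1, 2, and 3). Within the animals with 4-digit numbers (3 controls and 4 LmnaADKO mice), a comparison added after the data were seen, *Ces2e* was called (0.96, adjusted p = 0.0447, edgeR) and *Ces1b* was not (-0.84, adjusted p = 0.0660, edgeR).

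*Ces1c* was at 4205, 4290, and 4365 CPM in FGF21-treated controls and 1323 to 3390 CPM in FGF21-treated LmnaADKO mice (median 3029 CPM). Although all 8 LmnaADKO libraries lay below the 3 controls, the log2 fold change of -0.62 ± 0.22 was not called (adjusted p = 0.108, edgeR), and it was called by DESeq2 (-0.64, adjusted p = 0.0426). *Ces2a* overlapped between genotypes, at 114, 117, and 124 CPM in controls and 42.6 to 135 CPM in LmnaADKO mice. Its log2 fold change was -0.32 ± 0.28 (adjusted p = 0.599, edgeR). *Ces3b* was at 57.8, 15.5, and 7.16 CPM in FGF21-treated controls, a spread that covered most of the range of LmnaADKO mice (13.6 to 78.3 CPM). Its log2 fold change of 0.55 ± 0.53 was not called, and it was 1.79 without control FGF21 library 1 (adjusted p = 0.0932, edgeR).

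**Figure D3:**
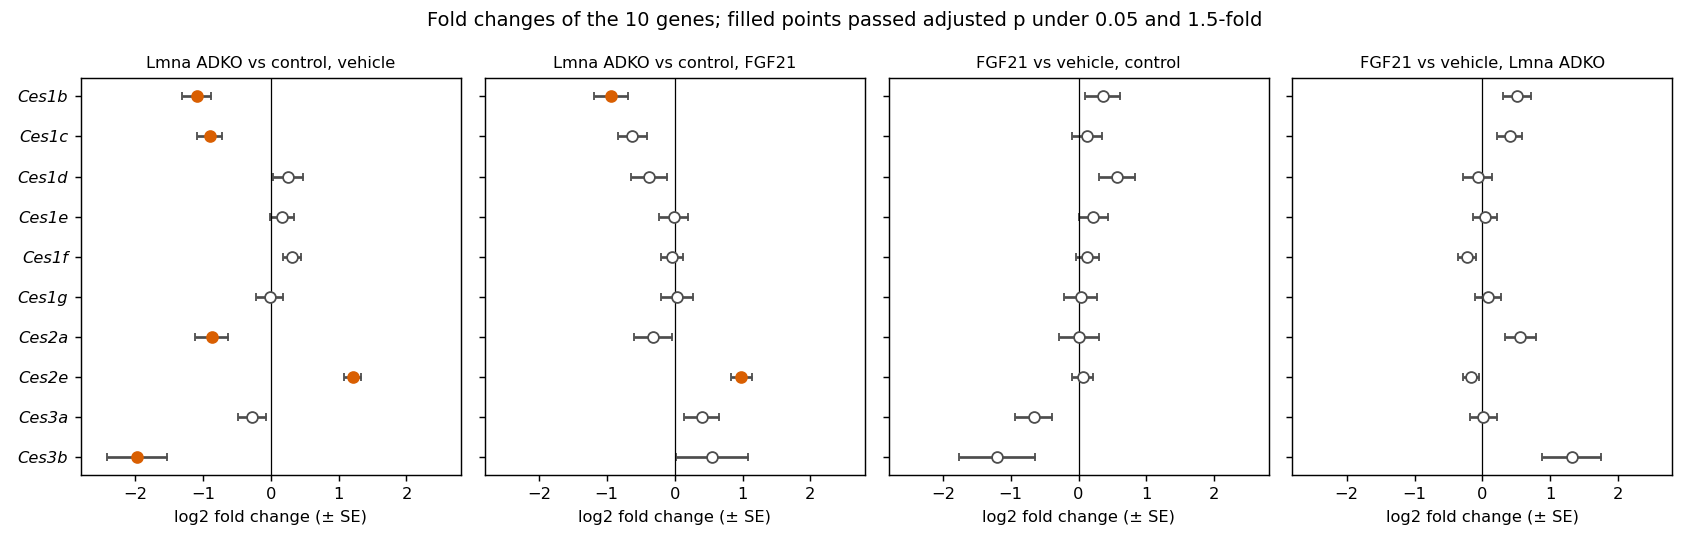
Log2 fold changes (linear axis, first group over second) of the 10 genes with SE, for the comparisons of genotype within treatment and of treatment within genotype. Filled points passed the adjusted p and fold thresholds, 5 with vehicle and 2 with FGF21 between genotypes, and no point was filled for FGF21 against vehicle.

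FGF21 was also compared with vehicle within each genotype. Because vehicle held no AAV, effects of AAV8 and of FGF21 cannot be told apart in these comparisons. In controls, 0 of 10 members were called by edgeR or DESeq2, and 0.0542% of all genes were called. An unadjusted p under 0.05 was found for 3 members and for 1476 of 23972 genes (6.16%). In LmnaADKO mice, 0 of 10 members were called by edgeR or DESeq2, and 0% of all genes were called by edgeR, against 15 genes by DESeq2. An unadjusted p under 0.05 was found there for 4 members and 1608 genes (6.71%). Without LmnaADKO FGF21 library 3, edgeR called 61 genes (0.254% of all) for this comparison, and 0 of 10 members. For the interaction of genotype and treatment, 0 of 10 members and 0.00417% of all genes were called, with 1 member and 1165 genes (4.86%) at an unadjusted p under 0.05. These comparisons share groups with the genotype comparisons, and their values are not independent of them.

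*Ces3b* had the lowest unadjusted p among members for FGF21 in LmnaADKO mice. It was at 9.14 to 32.96 CPM with vehicle and 13.6 to 78.3 CPM with FGF21 (median 38.05 CPM), and 8 of 8 FGF21 libraries were above the vehicle median. The log2 difference was 1.31 ± 0.43 (adjusted p = 0.668, edgeR), and the interaction term was 2.52 ± 0.71 (adjusted p = 0.878, edgeR). *Ces1b*, *Ces1c*, and *Ces2a* had log2 differences of 0.51 ± 0.21, 0.40 ± 0.18, and 0.56 ± 0.23 in LmnaADKO mice (adjusted p = 0.704 for each, edgeR), with 7 of 8 FGF21 libraries above the vehicle median for each gene. Without each library in turn, these differences ran from 0.43 to 0.69, 0.29 to 0.54, and 0.47 to 0.78. In controls, the log2 differences with an unadjusted p under 0.05 were 0.57 ± 0.27 for *Ces1d*, -0.66 ± 0.27 for *Ces3a*, and -1.20 ± 0.56 for *Ces3b* (adjusted p = 0.771, 0.750, and 0.771, edgeR). The *Ces3b* difference was -2.45 without control FGF21 library 1, -0.76 without library 3 of that group, and -0.67 without the 3 libraries of steepest slope. The *Ces1d* difference was 0.28 without control FGF21 library 3 and 0.33 without the 3 libraries. *Ces1b* in the 3 FGF21-treated controls lay above all 7 vehicle-treated controls, with a log2 difference of 0.36 ± 0.26 (adjusted p = 0.789, edgeR). All 3 had 4-digit animal numbers. Control vehicle library 7, the only vehicle-treated control with such a number, was the highest of its group for *Ces1b* at 99.3 CPM. Across the alternatives, the *Ces1b* difference ran from 0.11 to 0.40.

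Members also varied together among mice of the same group. After group means of log2 CPM were removed, Pearson's r over 24 libraries was positive for 40 of 45 pairs and ran from -0.27 to 0.88. Within-group permutation (100000 draws, two-sided) gave an adjusted p under 0.05 over the 45 pairs for 25 pairs, all with positive r. The share was not computed for pairs of other liver genes, so that this count does not show a trait particular to the members. *Ces1c* and *Ces2a*, of different clusters and with different coding ends, had the highest r (0.88, Spearman's rho 0.82, permutation p = 1e-05, the smallest these draws can give, adjusted p = 9e-05). It was 0.84 without the 2 libraries farthest from the median of *Ces1c*. *Ces1d* and *Ces1e* followed (r = 0.85, rho 0.84, permutation p = 1e-05, adjusted p = 9e-05), with 0.81 without the 2 farthest libraries of *Ces1d*.

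*Ces1b* and *Ces1c* had an r of 0.78 (rho 0.55, permutation p = 0.00188, adjusted p = 0.00564), which was 0.50 without the 2 libraries farthest from the median of *Ces1b*, 1 of them LmnaADKO FGF21 library 3, and 0.88 without the 3 libraries of steepest slope. *Ces2e* and *Ces3a* had no pair that passed. *Ces2a* and *Ces2e* had an r of 0.17 (rho 0.13, permutation p = 0.452, adjusted p = 0.550), and *Ces3a* and *Ces3b* an r of 0.25 (rho 0.26, permutation p = 0.232, adjusted p = 0.360).

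**Figure D4:**
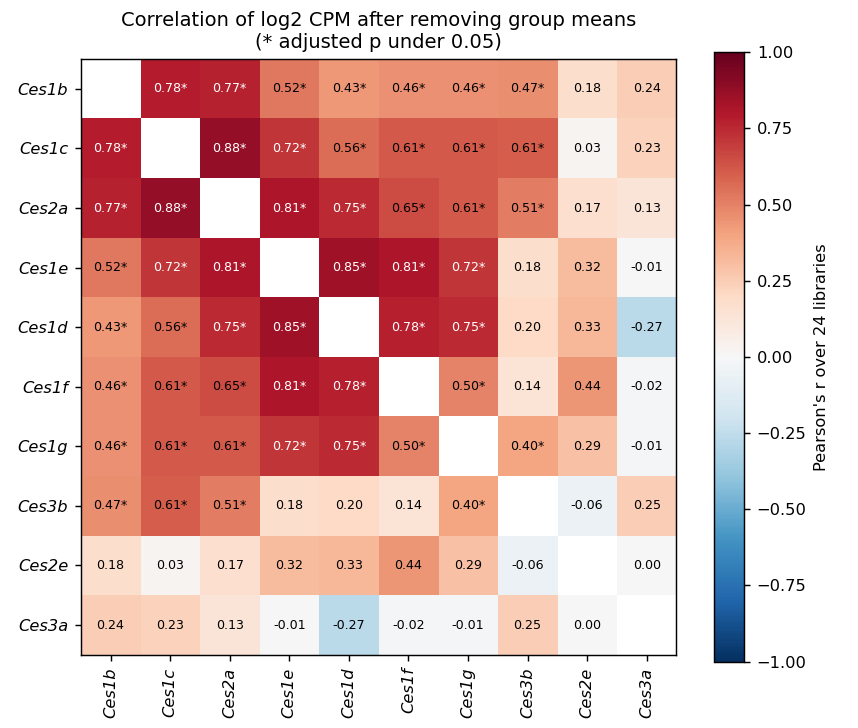
Pearson's r between genes over 24 libraries after group means of log2 CPM were removed, where the colour runs from -1 (blue) to 1 (red) and asterisks mark an adjusted permutation p under 0.05. *Ces1b*, *Ces1c*, *Ces2a*, *Ces1e*, *Ces1d*, *Ces1f*, and *Ces1g* form a block of positive values, and the *Ces2e* and *Ces3a* columns hold no asterisk.

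The summed level of the 5 hepatocyte markers, most of it from *Alb*, moved with some members. After group means were removed, its r over 24 libraries was 0.82 with *Ces1b*, 0.71 with *Ces2a*, and 0.63 with *Ces1c* (rho 0.76, 0.53, and 0.45). It was 0.28 for *Ces2e*, 0.22 for *Ces3b*, and 0.16 for *Ces3a* (rho 0.29, 0.07, and 0.14), given here as a description. These markers summed to 73024 to 130613 CPM in vehicle-treated controls and 65743 to 99193 CPM in vehicle-treated LmnaADKO mice, and 1 of 5, *Cps1*, was called lower. Of 5 stellate and fibroblast markers, 2 were called higher in vehicle-treated LmnaADKO mice (*Col3a1* and *Acta2*), with a summed level of 242 to 386 CPM against 170 to 257 CPM in controls. Of the macrophage, endothelial, cholangiocyte, lymphocyte, and adipocyte markers, 0 were called between vehicle-treated genotypes. The part of cell composition in the *Ces* results was not tested.

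The gene whose within-group pattern was most like that of a member was sought, for 9 members, among 12480 other genes whose mean log2 CPM was not below 0. It was *Upb1* for *Ces2a* (r = 0.93), *Cmtm8* for *Ces1c* (r = 0.92), and *Cps1*, of the urea cycle, for *Ces3b* (r = 0.81). For *Ces1d*, *Ces1e*, *Ces1f*, and *Ces1g*, it was *Shmt1*, *Hao2*, *Swi5*, and *Vnn3* (r = 0.87, 0.87, 0.87, and 0.79). *Ces2e* and *Ces3a* had the least alike nearest genes, *Pgrmc1* and *Btg1* (r = 0.72 for both). Without the 3 libraries of steepest slope, each of these 9 members had another nearest gene.

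Other carboxylesterase genes and related pathways were examined from lists. Of 9 other carboxylesterase genes counted, 2 were called higher and 0 lower in vehicle-treated LmnaADKO mice. *Ces2c*, a hepatic acylglycerol hydrolase gene, was at 9.33 CPM in controls and 29.5 CPM in LmnaADKO mice (log2 fold change 1.66 ± 0.37, adjusted p = 0.00339, edgeR), and with FGF21 at 6.76 and 21.97 CPM (1.70 ± 0.49, adjusted p = 0.0581, edgeR). *Ces1h*, the other called gene, had at most 2 counts in any library. Thus, of the Ces2 genes above trace levels, *Ces2c* and *Ces2e* rose, *Ces2a* fell, and *Ces2g* was below the fold threshold (log2 fold change 0.38 ± 0.13, adjusted p = 0.0440, edgeR).

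Of 20 other ester and lipid hydrolases or their regulators, 2 were called higher and 2 lower in vehicle-treated LmnaADKO mice, and 1 and 3 with FGF21. *Lipc*, hepatic lipase, fell from 219 to 84.3 CPM with vehicle (log2 fold change -1.38 ± 0.16, adjusted p = 6.25e-07, edgeR). *Pon1*, paraoxonase, fell from 1054 to 609 CPM (-0.79 ± 0.18, adjusted p = 0.00264, edgeR). *Lipa*, lysosomal acid lipase, rose from 173 to 287 CPM (0.74 ± 0.12, adjusted p = 9.22e-05, edgeR), and *Abhd5*, the activator of adipose triglyceride lipase, rose from 19.9 to 30.2 CPM (0.60 ± 0.10, adjusted p = 7.99e-05, edgeR). The list's median log2 fold change was 0.16.

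Of 10 VLDL assembly genes, 0 were called higher and 1 lower in both genotype comparisons. *Tm6sf2*, which acts in VLDL lipidation, was at 59.2 CPM in vehicle-treated controls and 31.9 CPM in vehicle-treated LmnaADKO mice (log2 fold change -0.89 ± 0.13, adjusted p = 1.28e-05, edgeR). Of 4 genes for KDEL receptors and beta-glucuronidase, 1 was called higher with vehicle. It was *Gusb*, beta-glucuronidase, the partner of the *Ces1e* product, at 27.8 and 50.3 CPM (0.86 ± 0.09, adjusted p = 1.45e-07, edgeR), whereas *Ces1e* itself was not called.

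Among transcription regulators of hepatic esterases, *Nr1i3*, the xenobiotic receptor CAR (log2 fold change -1.004 ± 0.212), and *Foxa2* (-0.80 ± 0.18) fell with vehicle, with adjusted p of 0.00157 and 0.00347 (edgeR). *Foxa2* averaged 31.8 CPM (SD 11.7) in vehicle-treated controls and 18.3 CPM (SD 1.5) in vehicle-treated LmnaADKO mice. Between FGF21-treated genotypes it was not called (0.18 ± 0.22, adjusted p = 0.724, edgeR). Of 7 CAR and PXR target genes, 3 were called higher (5.12% of all genes) and 0 lower with vehicle. *Gsta1* (4.06 ± 0.70), *Cyp2c55* (1.20 ± 0.23), and *Cyp3a11* (0.67 ± 0.20) rose, the first 2 from low means of 0.91 and 0.87 CPM in controls. *Cyp2b10* (0.81 ± 0.55), *Alas1* (0.88 ± 0.40), *Por* (-0.49 ± 0.22), and *Abcc3* (0.0090 ± 0.10) were not called. The activity of CAR and PXR was not tested. Of 8 genes of retinyl ester and other retinoid handling, 4 were called higher (5.12% of all genes) and 0 lower with vehicle. They were *Aldh1a1* (1.31 ± 0.22), *Cyp26a1* (2.04 ± 0.42), *Lrat* (0.74 ± 0.20), and *Rdh11* (0.83 ± 0.25). In FGF21-treated mice, *Nr1i3* was called lower (-1.30 ± 0.24, adjusted p = 0.00233, edgeR). There, 1 CAR or PXR target and 2 retinoid genes were called higher (1.61% of all genes).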

How the data were processed

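Liver RNA was sequenced from polyA-selected, strand-specific libraries. The authors deposited counts of reads per gene, without normalization. The submitters' processing notes name cutadapt 4.8, FastQC 0.11.8, STAR 2.7.8a, RSEM 1.3.3, and GRCm38, so that the whole-number counts may be rounded RSEM estimates, in which reads shared by similar genes are divided by estimation. The methods name Ensembl 102 annotation and the removal of genes at 0 in every sample. Of 23972 genes, 23900 were found in GENCODE M21, and 0 columns lacked a sample. The labels and the methods name different sequencing providers.

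Library sizes were scaled by TMM, and differences were tested by the quasi-likelihood method of edgeR 4.0.16 under R 4.3.3 (estimateDisp, robust glmQLFit, glmQLFTest), in 1 fit of 4 groups without covariates over all genes, with Benjamini-Hochberg adjustment. A call required a fold change above 1.5 and an adjusted p under 0.05. Standard errors were taken from the log2 fold change and the F statistic, and log2 CPM used a prior count of 2. The fit was tested on simulated data. DESeq2 1.42.0 was an alternative, beside its size factors, edgeR's filterByExpr, the groups compared alone, covariates for number series and length slope, and fits without libraries. The slope was estimated over 9690 genes whose mean log2 CPM exceeded 2. Correlations of log2 CPM deviations were tested by permutation within groups. The members and lists were chosen with earlier results of these data known. From the lists, genes called between genotypes were named, at most 4 per list by smallest p with vehicle, and some items are not reported here. Each mouse gave 1 library, libraries are numbered within groups by animal number, and intervals reflect differences between mice and counting together.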

Additional observations from a re-analysis of the deposited data

Results flagged for a closer look

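Of 30 sets of values (10 genes in the 3 groups of 6 to 8 libraries), 4 held a library that stood apart from the others by Dixon's 95% criterion on log2 CPM, where chance marks about 1 in 20. In LmnaADKO FGF21 library 3, *Ces1b* was at 21.03 CPM and *Ces1c* at 1323 CPM, each the lowest of 8, and *Ces2a* was also lowest at 42.6 CPM. The 5 hepatocyte markers summed to 65135 CPM in this library, the lowest of its group. In LmnaADKO vehicle library 4, *Ces1d* was at 1087 CPM and *Ces3b* at 32.96 CPM, each the highest of 6. The hepatocyte markers summed to 97845 CPM there, second to 99193 CPM in library 5. These libraries stood at the edge of their groups for most members. LmnaADKO FGF21 library 3 was the lowest of 8 for 6 of 10 members (*Ces1b*, *Ces1c*, *Ces1g*, *Ces2a*, *Ces3a*, and *Ces3b*), and LmnaADKO vehicle library 4 was the highest of 6 for 8 of 10 (all but *Ces2e* and *Ces3a*). Without either library, the same members were called between genotypes. For FGF21 against vehicle in LmnaADKO mice, edgeR called 61 genes without LmnaADKO FGF21 library 3, against 0 with all libraries, and no member in either fit. The cause was not tested.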

How the results depend on the processing

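Between vehicle-treated genotypes, 5 members were called under all alternatives except the number series as a covariate, where *Ces2a* was lost and 4 were called. With FGF21, 2 members were called, and 1 (*Ces2e*) was called with only the groups compared, with the number series as a covariate, without the 3 libraries of steepest slope, and within the 4-digit numbers. Without each library in turn, this count was 1 to 2, with 1 without any of the 3 FGF21-treated controls. The cause was not tested. DESeq2 called *Ces1c* in addition. No member was called for treatment or for the interaction under any alternative. Pairs passing the correlation test numbered 25, 25 without the 3 libraries, and 21 by Spearman's rho. On CPM instead of the level per kilobase, the share of *Ces1b* in vehicle-treated controls was 1.33% and that of *Ces1f* 4.71%. Log2 fold changes near 0, none of them called, changed sign in these cases. With the length slope as a covariate, the values were 0.025 for *Ces1e* between FGF21-treated genotypes, -0.041 for *Ces2a* for FGF21 in controls, and -0.017 for *Ces3a* for FGF21 in LmnaADKO mice. Without the 3 libraries, the values were 0.25 for *Ces1e* between FGF21-treated genotypes, 0.15 for *Ces1f* between FGF21-treated genotypes, -0.0074 for *Ces1f* for FGF21 in controls, -0.039 for *Ces1g* for FGF21 in controls, 0.0070 for *Ces1d* for FGF21 in LmnaADKO mice, -0.087 for *Ces3a* for FGF21 in LmnaADKO mice, and 0.077 for *Ces1e* for the interaction. With the number series as a covariate, the values were -0.22 for *Ces1g* for FGF21 in controls and -0.0033 for *Ces2e* for FGF21 in controls. Within the 4-digit numbers, the values were -0.043 for *Ces1e* for FGF21 in LmnaADKO mice. Leaving out each library in turn moved *Ces1g* from -0.19 to 0.085 between vehicle-treated genotypes, *Ces1e* from -0.18 to 0.18, *Ces1f* from -0.19 to 0.090, and *Ces1g* from -0.068 to 0.10 between FGF21-treated genotypes, *Ces1f* from -0.0053 to 0.28, *Ces1g* from -0.080 to 0.13, *Ces2a* from -0.088 to 0.11, and *Ces2e* from -0.011 to 0.16 for FGF21 in controls, *Ces1d* from -0.13 to 0.10, *Ces1e* from -0.061 to 0.19, *Ces1g* from -0.023 to 0.25, and *Ces3a* from -0.082 to 0.14 for FGF21 in LmnaADKO mice, and *Ces1e* from -0.34 to 0.024 and *Ces1g* from -0.058 to 0.22 for the interaction. No paired analysis was possible because the groups share no replicate numbers in the labels. There were 3 FGF21-treated controls, and number series was nearly aligned with genotype among vehicle-treated mice and with treatment among controls. The precision of these comparisons is limited by the number of mice.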
